A study of Mus musculus with 6 samples.

Results

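The mitochondrial ribosomal protein genes were examined in brains of mouse embryos at E12.5, across every gene whose symbol on the array begins with Mrpl or Mrps and a number. This rule, which used no measured value, took 76 of the 16593 genes named on the array, with 110 of its 25696 probes, 47 genes with large subunit names (Mrpl) and 29 with small subunit names (Mrps). RefSeq (GRCm38.p6) held 78 protein-coding genes with such symbols, of which Mrpl41 and Mrpl44 had no probe here, and the members lie on 17 chromosomes. Of the 110 probes, 97 probes of 70 genes were tested because their signal was above the negative controls (detection p under 0.05) on at least 3 of the 6 arrays, and 96 probes were detected on each of the 6 arrays.

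The knockout group was 3 C57/BL6 embryos with Nestin Cre+ together with Rest GTi/GTi and p53 fl/fl, and the control group was 3 littermates with Rest GTi/GTi and p53 fl/fl that lacked Cre. Rest GTi is an inverted gene trap that Cre turns into its trapping orientation and p53 fl is a floxed allele, so both groups carried both alleles and only Cre distinguished them. Nestin Cre acts in neural progenitors and passes the change to their progeny, so by design other cells of the brain keep both genes, which was not tested here. The loss of REST, the loss of p53 and the presence of Cre itself cannot be told apart in this design. Each sample was total RNA of a freshly dissected brain hybridised to 1 Illumina BeadChip, and the labels call the samples biological replicates without giving litter, sex or slide. The log2 intensity of Xist, an RNA of female cells, was 12.16, 6.53 and 6.53 in knockout brains, against 12.13, 6.61 and 12.31 in control brains. By this RNA the sexes were not balanced between the groups, and the part of sex in the differences was not tested.

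REST is a repressor that silences neuronal genes outside neurons, and p53 is an activator of genes for cell cycle arrest and cell death. The mitochondrial ribosome makes the few proteins encoded in mitochondrial DNA, which are core subunits of the respiratory chain and of ATP synthase. Its RNAs come from mitochondrial DNA, but all of its proteins are encoded in the nucleus, made in the cytosol and imported. Many of them descend from bacterial ribosomal proteins, and others are found only in mitochondria. A small subunit reads the messenger RNA, and a large subunit forms the peptide bond and holds the exit tunnel, which faces the inner membrane.

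The promoters of this family are known for short motifs bound by ETS factors such as GABP, by NRF1 and by YY1, so they were searched in RefSeq windows (GRCm38.p6) of 250 bases before to 50 bases after a gene's start. Of the 76 genes, 67 had such windows, 73 in all. The stretches of 250 bases before the start are shown for Mrpl49, which the results below set against its family, for Mrpl51 and Mrps22, whose knockout values by the brightest probe all lay above the control values, and for Mrps18c, which had the smallest p-value of the genes with a window whose knockout values all lay below. They run 5′ to 3′ on the gene's strand, and capitals mark the ETS motif (CCGGAAG, or CTTCCGG on the opposite strand) and the GC box (GGGCGG, or CCGCCC).
Mrpl49 (chr19:6057756-6058005, minus strand): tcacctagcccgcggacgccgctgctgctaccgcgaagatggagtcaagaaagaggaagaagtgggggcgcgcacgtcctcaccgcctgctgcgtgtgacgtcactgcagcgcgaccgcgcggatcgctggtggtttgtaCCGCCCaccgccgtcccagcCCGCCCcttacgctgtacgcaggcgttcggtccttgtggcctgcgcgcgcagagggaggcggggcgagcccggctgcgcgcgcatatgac
Mrpl51 (chr6:125191950-125192199, plus strand): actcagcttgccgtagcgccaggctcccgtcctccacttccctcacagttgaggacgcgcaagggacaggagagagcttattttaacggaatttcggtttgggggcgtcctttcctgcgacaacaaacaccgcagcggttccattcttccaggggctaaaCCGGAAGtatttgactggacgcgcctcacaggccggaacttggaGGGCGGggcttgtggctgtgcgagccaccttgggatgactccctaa
Mrps22 (chr9:98601680-98601929, minus strand): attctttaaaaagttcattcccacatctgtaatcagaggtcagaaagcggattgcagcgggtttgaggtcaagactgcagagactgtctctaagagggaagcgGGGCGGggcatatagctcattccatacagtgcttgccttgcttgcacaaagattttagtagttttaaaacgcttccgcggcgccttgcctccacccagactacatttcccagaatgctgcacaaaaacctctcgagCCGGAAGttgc
Mrps18c (chr5:100798509-100798758, plus strand): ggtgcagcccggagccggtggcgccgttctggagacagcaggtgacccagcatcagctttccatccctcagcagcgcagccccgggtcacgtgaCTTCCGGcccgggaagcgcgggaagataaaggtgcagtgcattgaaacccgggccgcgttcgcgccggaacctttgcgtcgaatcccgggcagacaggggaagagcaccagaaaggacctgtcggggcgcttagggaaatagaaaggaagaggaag

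CCGGAAG was found, on either strand, in 26 of the 73 family windows (35.6%), against 8.86% of all 32851 windows of the same length. The YY1 motif AAGATGGCG was in 8 family windows (11%), against 1.4% of all windows. TGCGCA, an arm of the palindromic NRF1 motif, was in 21 (28.8%), against 7.76%. The stretch of 250 bases before the start of Mrpl49 held none of these 3 motifs and 2 copies of the GC box. Those of Mrpl51, Mrps22 and Mrps18c each held the ETS motif. In the windows, which also take in the 50 bases after the start, the GC box was in 53.4% of the family and 35.7% of all. The E-box CACGTG was in 7 family windows (9.59%), against 7.15% of all. TTCAGCACC, the left part of the RE1 element that REST binds, was in 0 of the 73 family windows and in 0.371% of all windows. The motifs searched do not contain one another, and these are matches of letters in a short window and not sites of binding.

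Over all 13755 probes tested, 0 differed between knockout and control brains at an adjusted p under 0.05 (limma, Benjamini-Hochberg), with 0 also by the methods' t-test, and 632 (4.59%) had an unadjusted p under 0.05. Between 52.2% and 54.1% of probes were detected per array. The probe for Rest was detected on 0 arrays and the array has no probe named Trp53, so neither gene could check the labels. All 6 markers of young neurons and 5 of 7 markers of neural progenitors were detected well enough to be tested. The second knockout brain lay far from the rest along the first principal component (40.69, against -14.81 to -0.84 for the other 5 arrays). In that brain the median of 8 mesenchyme and meninges genes lay at -2.79 relative to the control mean on the log2 scale, and that of 3 choroid plexus genes at -4.65. The same medians ranged from -0.68 to 0.11 and from -0.46 to -0.04 in the other knockout brains, and from -0.38 to 0.36 and from -0.25 to 0.22 in control brains. That brain was also lowest of all arrays for endothelium and pericytes (-0.70), erythroid cells (-0.63) and microglia and macrophages (-0.46). It was highest for young neurons (0.44), but not for neural progenitors (0.14, against 0.40 in knockout replicate 1). In whole brain RNA, fewer cells of a type and less RNA per cell cannot be told apart.

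Mrpl49, a large subunit protein that bacteria lack, was the family gene with the most tested probes, 4. It was singled out with results of these samples known and stands on a list of genes chosen on these samples, so its values are a description. Probe ILMN_2701363 gave log2 intensities of 8.90, 8.90 and 8.95 in the 3 knockout brains, against 8.25, 8.07 and 8.23 in the 3 control brains. All 3 knockout values lay close together and well above all 3 control values. The difference was 0.74 on the log2 scale (SE 0.11, 95% interval 0.47 to 1.01), 1.67-fold, with an unadjusted p of 3.7e-04 and an adjusted p of 0.910 in limma over all probes tested. This was the only one of the 97 family probes beyond 1.5-fold, where 3.28% of all probes lay.

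The other 3 probes of Mrpl49 did not show that difference. ILMN_2634295, the brightest of them, gave 11.86, 11.73 and 12.07 in knockout brains, against 11.83, 11.71 and 11.73 in control brains. Its groups overlapped, and the difference was 0.13 (SE 0.13, 95% interval -0.18 to 0.44). ILMN_2628672 gave 8.39, 8.15 and 9.27 in knockout brains, against 8.46, 8.51 and 8.49 in control brains. Here knockout replicate 3 alone was high and the other knockout brains were below all controls, so the difference of 0.12 (SE 0.28) became -0.22 without that brain. ILMN_2929031 gave 9.53, 8.86 and 9.11 in knockout brains, against 8.98, 9.21 and 9.23 in control brains, and its difference of 0.03 (SE 0.19) also had no separation of the groups. No single array was high on all 4 probes. Probe sequences were not used here, so the exons that each probe reads are not given.

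**Figure D1:**
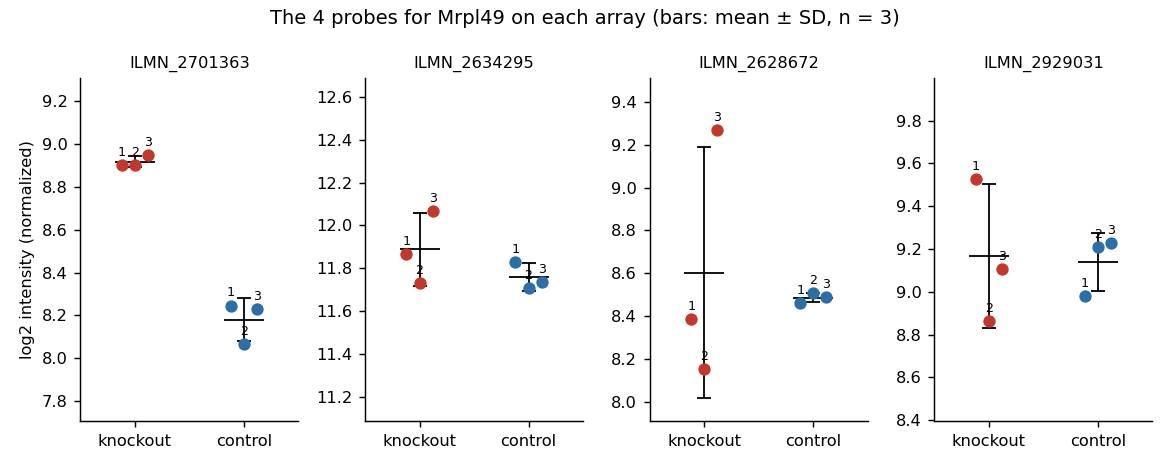
Log2 intensity of the 4 Mrpl49 probes (1 panel each, all panels spanning 1.6 log2 units) in knockout (red, left) and control (blue, right) brains; numbers are replicates, the long line is the mean and the bars are 1 SD (n = 3). Only for ILMN_2701363 do the knockout values, 8.90 to 8.95, all lie above the control values, 8.07 to 8.25.

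The size for ILMN_2701363 moved with the background correction, from 1.36-fold with none to 1.48-fold with normexp, and stayed between 1.60- and 1.71-fold when each brain was left out in turn. In the deposited table the probe names are displaced by 2 lines after a pair of empty name cells, and all 110 family probes lie after them. With names as deposited, the line of values given here for ILMN_2701363 is named ILMN_2628672, which is also an Mrpl49 probe, so its gene is the same either way, while the line then named ILMN_2701363 differed by 0.13.

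Mrpl49 lies at chr19:6053630-6057755 in GRCm38.p6. Its last 89 bases overlap Syvn1, a ubiquitin ligase of the endoplasmic reticulum, and 191 bases separate its start from Fau, a cytosolic ribosomal protein gene on the other side. The brightest probe of Syvn1 differed by -0.04 (SE 0.13) and that of Fau by 0.12 (SE 0.15). Next to them, Znhit2 differed by -0.04 (SE 0.16), and Tm7sf2, a sterol reductase, by 0.47 (SE 0.21, p 0.063). Zfpl1, a Golgi protein, differed by 0.26 (SE 0.13, p 0.078). None of these neighbours passed an unadjusted p of 0.05.

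Across the family, the knockout and control brains differed little. With each gene represented by its brightest tested probe, 0 of 70 genes passed an adjusted p of 0.05 and 1 had an unadjusted p under 0.05 (1.43%, against 4.59% of all probes tested), a lower value in knockout brains, as 2.34% of all probes had. The methods' t-test also gave 0 by adjusted p and 3 by unadjusted p, where 4.54% of all probes passed. Differences ranged from -0.38 to 0.25 with a median of 0.02 on the log2 scale, beside 0.01 over all probes tested, and 41 of 70 were positive (58.6%, against 51.3%). Over all 9408 named genes tested, likewise by their brightest probe, the median was -0.01 and 48.7% were positive. Of these genes, 4.17% had an unadjusted p under 0.05 in limma. By the brightest probe, none of the 70 family genes exceeded 1.5-fold, as 301 of the 9408 named genes did. For 62 of the 70 family genes (88.6%, against 7562 of all 13755 probes) the whole 95% interval lay within 1.5-fold. The family is bright, and dim probes have wider intervals (median SE 0.14 for the family and 0.17 for all probes), which was not adjusted for. The count of positive differences depended on single brains: it was 31 without knockout replicate 3 and 28 without control replicate 3, when the median was -0.03 each time, and 48, with a median of 0.06, without knockout replicate 2.

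**Figure D2:**
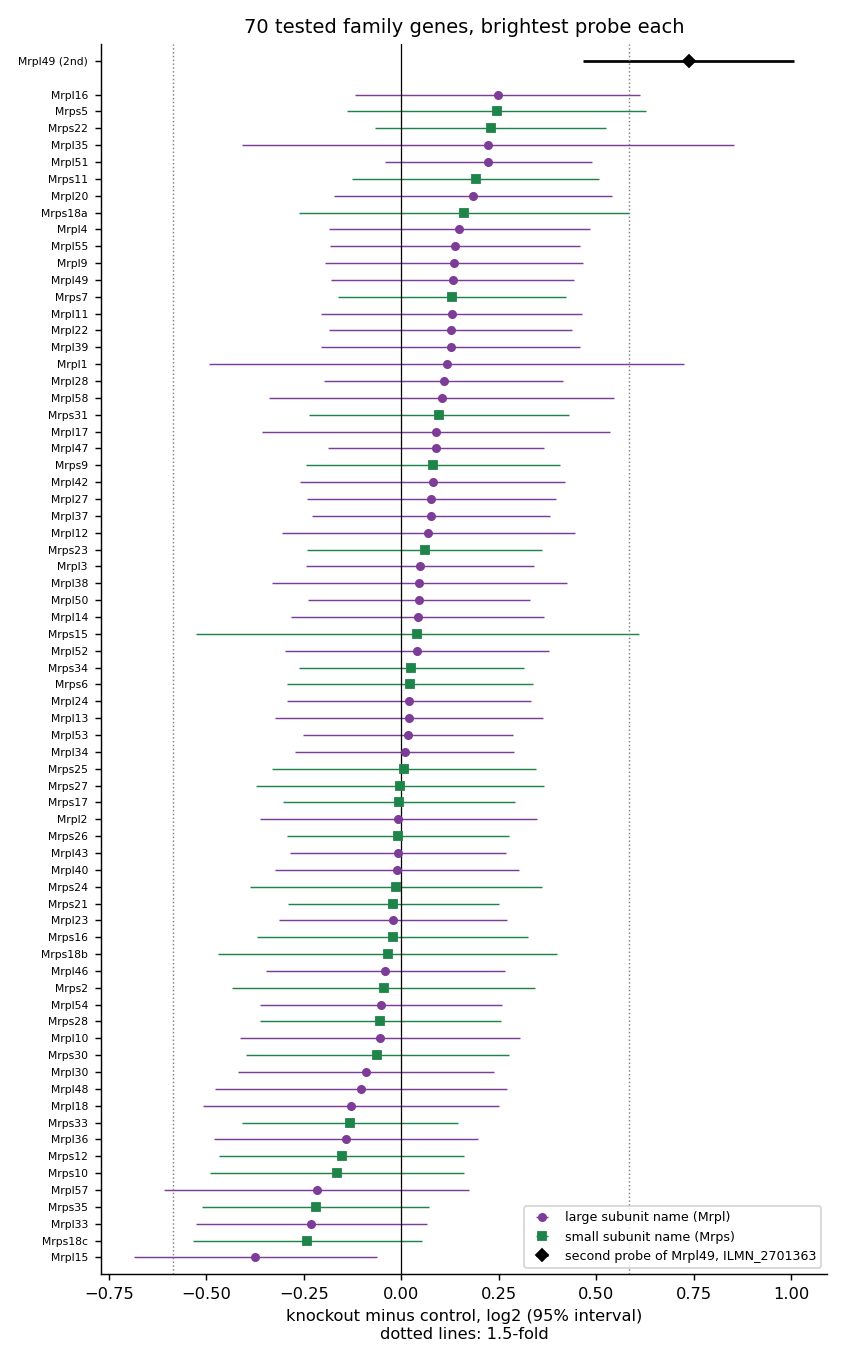
Knockout minus control difference (log2, x axis) with its 95% interval for the brightest probe of each of 70 family genes, ranked, with circles for Mrpl and squares for Mrps names. The diamond at the top is the Mrpl49 probe ILMN_2701363; the dotted lines mark 1.5-fold, which no brightest probe passes, and the genes run from Mrpl16 (0.25) down to Mrpl15 (-0.38).

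**Figure D3:**
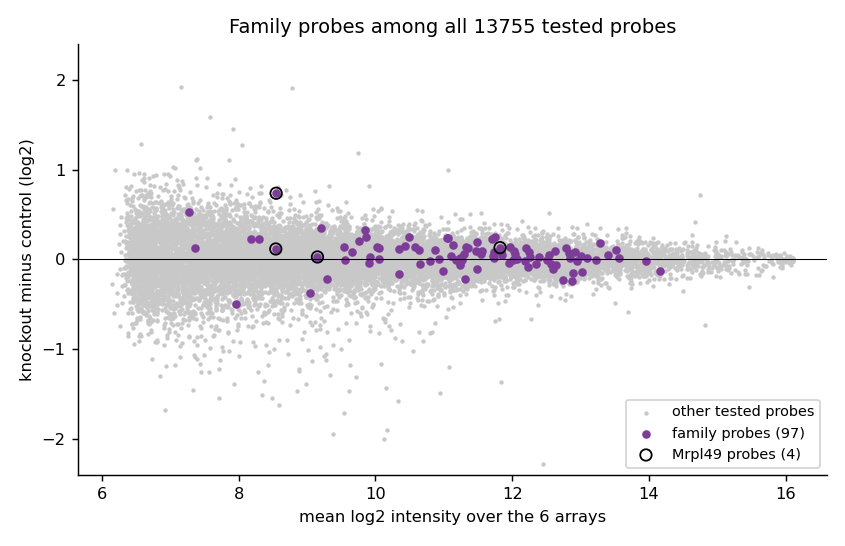
Knockout minus control difference (log2, y axis) against mean log2 intensity over the 6 arrays (x axis) for 97 family probes (purple) and the other tested probes (grey); the 4 Mrpl49 probes are circled. Most family probes sit among the brighter probes and near 0, and ILMN_2701363, at 0.74, is the highest of them.

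The groups did not overlap for 7 of 70 family genes (10%), beside 9.30% of all probes tested, 2 with the knockout brains above (4.68% of all probes) and 5 with them below (4.62% of all probes). Mrpl51 and Mrps22 were the pair above, both proteins that bacteria lack. Mrpl51, of the large subunit, gave 8.45, 8.45 and 8.36 in knockout brains, against 8.25, 8.11 and 8.22 in control brains, a difference of 0.22 (SE 0.11, p 0.088, adjusted p 0.999). Mrps22, a small subunit protein mutated in human respiratory chain disease, gave 11.74, 11.79 and 11.95 in knockout brains, against 11.65, 11.66 and 11.48 in control brains, a difference of 0.23 (SE 0.12). In both, the knockout and control brains lay close at the edges of their ranges.

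Mrpl15, a large subunit protein with a bacterial counterpart, was the family gene with an unadjusted p under 0.05. It gave 8.79, 8.74 and 9.03 in knockout brains, against 9.14, 9.32 and 9.22 in control brains. All knockout brains lay below all control brains, and the difference was -0.38 (SE 0.13, 95% interval -0.69 to -0.06, p 0.025, adjusted p 0.999). The unadjusted p stayed under 0.05 without knockout replicate 3 or control replicate 1 but not when any other of the 6 brains was left out, nor with limma's trended robust fit or the replicate block, while the difference over these omissions stayed between -0.46 and -0.32. The other genes with knockout brains below were Mrps18c (-0.24, SE 0.12), whose bacterial counterpart is S18, Mrpl33 (-0.23, SE 0.12), Mrps35 (-0.22, SE 0.12) and Mrps33 (-0.13, SE 0.12). By the dimmer probes of Mrpl33 (-0.11) and Mrps33 (0.01), the groups overlapped. Mrps18c gave 12.83, 12.71 and 12.71 in knockout brains, against 12.84, 13.05 and 13.09 in control brains, so that the groups almost touched. With names as deposited, 8 of the 18 genes chosen by p-value that then had a tested probe changed sign, among them Mrps22 and Mrpl15, because other lines of values then carry their names.

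Of the other positive differences with the smallest p-values, those of Mrpl16 (0.25, SE 0.15), Mrps5 (0.24, SE 0.16) and Mrps11 (0.19, SE 0.13) concern proteins conserved from bacteria. Mrpl20 (0.18, SE 0.15), Mrpl4 (0.15, SE 0.14), a protein near the exit tunnel, Mrpl55 (0.14, SE 0.14) and Mrps7 (0.13, SE 0.12) followed. On the negative side came Mrpl57 (-0.22, SE 0.17), Mrps10 (-0.16, SE 0.14), Mrps12 (-0.15, SE 0.13), which lies at the decoding site, Mrpl36 (-0.14, SE 0.14) and Mrpl18 (-0.13, SE 0.16). In all of these the groups overlapped. The dimmer tested probes of Mrps11 (-0.004), Mrps10 (0.03) and Mrpl18 (0.14) had the opposite sign. That of Mrps7 (0.01) had the same sign, as did that of Mrps5, given below. The 3 brightest family genes were Mrps33, given above, Mrps24 (-0.01, SE 0.16) and Mrpl13 (0.02, SE 0.14).

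Split by role, the 43 tested genes with Mrpl names had a median of 0.05 with 29 positive, and the 27 with Mrps names a median of -0.01 with 12 positive. The 27 large subunit proteins with bacterial counterparts had a median of 0.07 and the 18 large subunit proteins of mitochondria alone 0.04. The corresponding small subunit medians were -0.01 over 15 genes and 0.00 over 10 genes. Mrps30 and Mrps18a, which belong to the large subunit in spite of their names, were counted with it in this split. Of the genes named Mrps18, only Mrps18c was counted as having a bacterial counterpart. Mrps18a and Mrps18b were placed with the proteins of mitochondria alone, though they share its name. These medians are all within 0.1 of the all-probe value, and the median deviations of single brains spread wider, as follows.

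On each array, the median deviation of the 70 genes from their control means was 0.02, -0.06 and 0.11 in knockout brains, against 0.03, 0.05 and -0.07 in control brains. The groups overlapped, and the SD between replicates was 0.077. Cytosolic ribosomal proteins, the most alike family, gave 0.01, -0.03 and 0.06 in knockout brains, against 0.01, 0.01 and -0.01 in control brains over 53 genes. Subunits of oxidative phosphorylation that the nucleus encodes gave 0.03, -0.06 and 0.10 in knockout brains, against 0.00, 0.02 and -0.02 in control brains over 71 genes. Among the knockout brains, replicate 3 had the highest and replicate 2 the lowest value in all 3 families. Replicate 2 is also the brain with low mesenchyme, choroid plexus, endothelial, erythroid and microglial genes and with the highest young neuron genes. The part of these in its values was not tested. Over all probes the array medians stayed between -0.01 and 0.01.

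**Figure D4:**
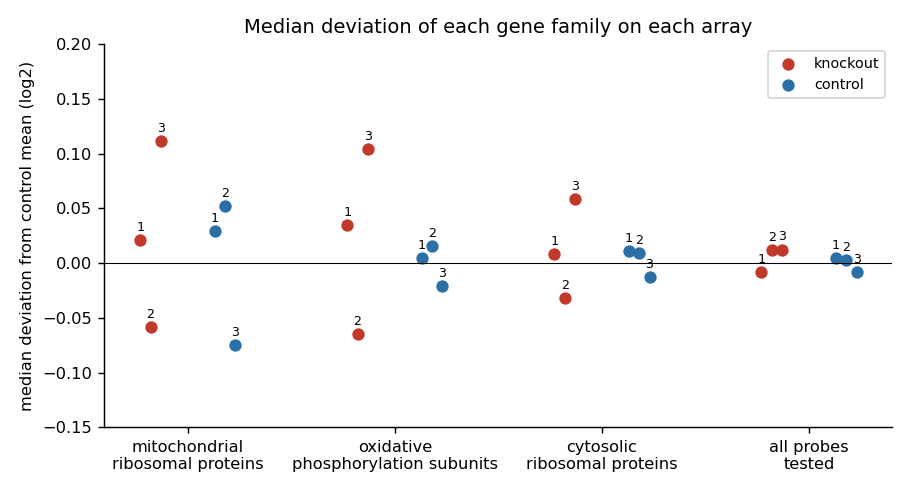
Median deviation from the control mean (log2, y axis) on each array for mitochondrial ribosomal proteins (70 genes), oxidative phosphorylation subunits (71), cytosolic ribosomal proteins (53) and all 13755 tested probes; red points on the left of each pair are knockout brains, blue points control brains, and numbers are replicates. Knockout replicate 3 is highest and knockout replicate 2 lowest among the knockout brains in the first 3 groups, and the genotypes overlap.

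Probes for the same gene allowed the spread within genes to be seen in 21 family genes, 16 of them with a pair of tested probes. The highest and lowest differences within a gene lay a median of 0.15 apart, beside 0.19 in 2526 genes with several tested probes over the array, and had the same sign in 11 of 21 genes (1240 of 2526 over the array). They lay over 0.5 apart in 2 family genes (9.52%, against 10.4% over the array), Mrpl49 with a span of 0.71 and Mrpl1 with 0.61. Mrpl1 is the counterpart of the bacterial protein of the flexible stalk beside the site where tRNA leaves. Its probe ILMN_2747281 gave 7.97, 7.63 and 7.53 in knockout brains, against 8.66, 7.89 and 8.06 in control brains, a difference of -0.49 (SE 0.23). Its brighter probe gave 10.57, 9.87 and 10.77 in knockout brains, against 10.44, 10.42 and 10.0004 in control brains, a difference of 0.12 (SE 0.26). Both overlapped between groups, and the SE of each was wider than the 0.11 of ILMN_2701363 of Mrpl49, which was itself 0.20 with limma's trended robust fit.

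Among all 97 family probes, 0 passed an adjusted p of 0.05 and 3 had an unadjusted p under 0.05 (3.09%). Higher in knockout brains, as 2.25% of all probes were, were ILMN_2701363 of Mrpl49 and the dimmer probe of Mrps5, and lower was the probe of Mrpl15. Mrps5 is a small subunit protein at the entry of the messenger RNA, and its dimmer probe gave 9.87, 10.16 and 10.01 in knockout brains, against 9.80, 9.67 and 9.58 in control brains. Its knockout brains all lay above the controls, with a difference of 0.33 (SE 0.13, p 0.041), and its brighter probe had the same sign with 0.24 (SE 0.16). The groups did not overlap for 13 of 97 probes (13.4%, beside 9.30% of all probes), 8 with the knockout brains above (4.68% of all probes) and 5 with them below (4.62%). The 3 probes of Mrpl51 all had positive differences, of 0.13, 0.22 and 0.53, the last with an SE of 0.28. Of the 13 probes left untested, 12 were detected on 0 arrays and a probe of Mrpl1 on 1 knockout array. The genes Mrpl19, Mrpl21, Mrpl32, Mrpl45, Mrps14 and Mrps36 had no other probe, so no difference is given for them. Mrps36 is among the genes with small subunit names but has no place in the split by role, as its protein is a part of the oxoglutarate dehydrogenase complex.

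**Figure D5:**
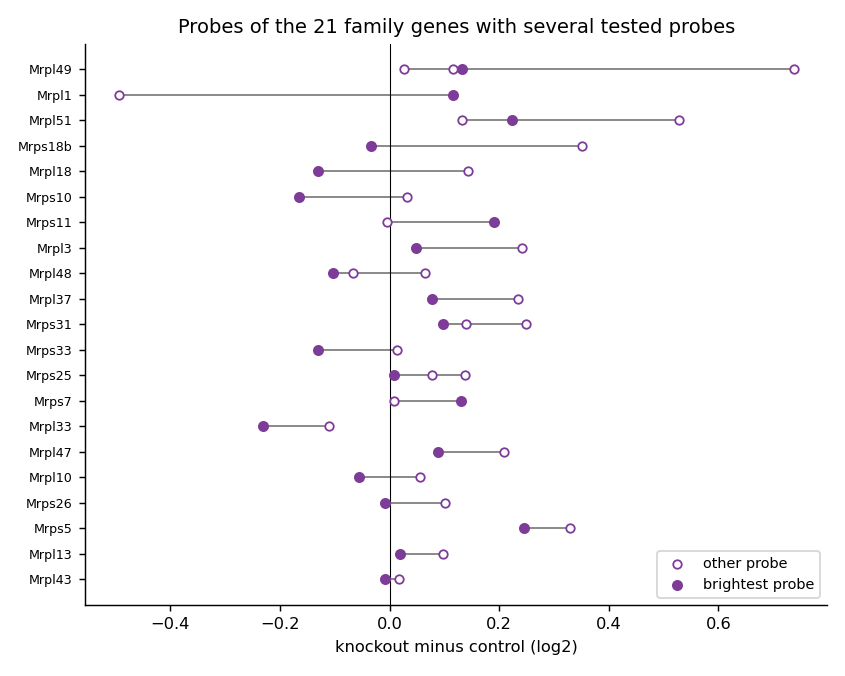
Knockout minus control difference (log2, x axis) of each tested probe for the 21 family genes with several tested probes, with the brightest probe filled and a line over the span, ordered by span. Mrpl49 (0.03 to 0.74) and Mrpl1 (-0.49 to 0.12) have the widest spans.

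The genes that work with the mitochondrial ribosome were followed through 5 further lists, and 0 of their genes passed an adjusted p or an unadjusted p of 0.05 in limma. Of all named genes tested, 0 passed the adjusted and 4.17% the unadjusted threshold, and 48.7% were positive. Dap3, Chchd1 and Ptcd3, small subunit proteins without an Mrp symbol, differed by 0.06 (SE 0.11), 0.03 (SE 0.13) and -0.11 (SE 0.18). Of 12 genes listed as translation factors and formylation enzymes, which include the RNA-binding proteins Lrpprc and Slirp, 4 were positive and the median was -0.06. The initiation factor Mtif2 (0.35, SE 0.18), the recycling factor Mrrf (0.16, SE 0.13) and the release factor Mtrf1l (-0.27, SE 0.25) had their smallest p-values. Of 15 assembly and rRNA modification factors, 9 were positive with a median of 0.01, and here Mterf1a, a binding protein of mitochondrial DNA, differed by -0.23 (SE 0.12), Fdxacb1 by 0.45 (SE 0.26) and Mpv17l2, which takes part in ribosome assembly, by -0.08 (SE 0.11).

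Of 15 genes whose products charge mitochondrial tRNAs with amino acids, the aminoacyl-tRNA synthetases and the amidotransferase subunits Qrsl1, Gatb and Gatc, 7 were positive and the median was -0.04. Sars2, for serine, differed by -0.25 (SE 0.12), Nars2, for asparagine, by -0.47 (SE 0.23) and Aars2, for alanine, by -0.24 (SE 0.15). Lars2, for leucine, is named after its values were seen because it was the only gene of these lists beyond 1.5-fold. It gave 10.36, 9.69 and 7.07 in knockout brains, against 10.57, 9.63 and 10.45 in control brains, so a single knockout brain was low and the difference was -1.17 with an SE of 0.81. The list of mitochondrial DNA transcription and replication also holds regulators of nuclear genes (Nrf1, Gabpa, Gabpb1, Esrra and Ppargc1a) and the RNA nuclease Elac2. Of its 15 genes, 9 were positive with a median of 0.01. Among them Tefm, the elongation factor of mitochondrial transcription, differed by -0.16 (SE 0.12), Gabpb1, a subunit of the ETS factor GABP, by 0.19 (SE 0.15) and Polg, the mitochondrial DNA polymerase, by 0.14 (SE 0.16). Cytosolic ribosomal proteins had a median of 0.00 with 27 of 53 positive (50.9%). Oxidative phosphorylation subunits had 0.01 with 46 of 71 positive (64.8%), beside 48.7% of all named genes. In these 2 families 0 genes passed an adjusted p. An unadjusted p of 0.05 was passed by 1 cytosolic gene (1.89%) and 0 oxidative phosphorylation genes, beside 4.17% of all named genes.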

How the data were processed

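Total RNA from 6 embryonic brains was hybridised to Illumina mouse reference BeadChips, and the authors used BeadStudio to read them and lumi to quantile-normalize them. The deposited values were linear intensity values, already quantile-normalized (the sorted values agreed within 1.61% between arrays), with a detection p-value for each from the authors' scanner software. The 2 empty probe name cells were removed and names and values paired in order. The probe whose name lay between the empty cells was left out, giving 25696 probes. Symbols came from the platform annotation, and promoters from RefSeq.

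Intensities were background-corrected, normalized and turned to log2 with neqc of limma 3.58.1 in R 4.3.3 (offset 16). Tests were limited to probes with detection p-values below 0.05 on 3 or more of the 6 arrays. Genotypes were compared with lmFit and eBayes, two-sided and without covariates, with Benjamini-Hochberg adjustment over all 13755 probes tested. Groups came from the labels, and p-values measure the spread between these samples only. The script was tested on simulated data. The precision is limited by 3 arrays per group. Members, lists and alternatives were chosen with earlier results of these data known. Named are all Mrpl49 probes, the 10 member genes per direction with the smallest p-values, genes whose probes lie over 0.5 apart, the 3 brightest members and up to 3 genes of each further list. Alternatives were other background corrections, filters, tests, the replicate block, names as deposited, the second deposited table of the same intensities, and leaving out each brain.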

Additional observations from a re-analysis of the deposited data

How the results depend on the processing

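No family probe passed an adjusted p of 0.05 under any alternative run. Over all probes, 1 was called in place of 0 with limma's trended robust fit, with the normexp correction, and with uncorrected intensities. The number of family genes with an unadjusted p under 0.05 was 3 with the methods' t-test (4.54% of all probes), 2 with the trended robust fit (3.75%; Mrpl33 and Mrps18c, not Mrpl15), and between 0 and 2 when each brain was left out (3.5% to 6.75%). Family genes whose groups did not overlap numbered 10 to 18 when a brain was left out, in place of 7, which fewer samples allow by construction (16.6% to 22.6% of all probes). The family median ranged from -0.03 to 0.06 over the same refits, that of the mitoribosome proteins without an Mrp symbol from -0.021 to 0.088, and that of the translation factors from -0.11 to 0.0085.

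The labels do not say whether replicate numbers pair the samples. Deviations of same-numbered brains correlated at -0.01, -0.08 and -0.15, beside -0.03 to 0.12 for brains with different numbers. Deviations were taken from each group's own mean, so the correlations of a brain with the other group roughly cancel by construction. These values therefore do not settle whether the numbers pair the samples. Whether brains shared a litter or slide was not tested. With the replicate block, 0 family genes had an unadjusted p under 0.05, as did 4.01% of all probes. With names as deposited, 8 of 18 named genes changed sign: Mrps22 to -0.014, Mrps11 to -0.15, Mrpl55 to -0.16, Mrpl15 to 0.089, Mrpl33 to 0.22, Mrps35 to 0.022, Mrps12 to 0.041 and Mrpl36 to 0.23, since those symbols then stand beside other lines of values. The difference of the Mrpl49 probe ILMN_2929031 was -0.15 without knockout replicate 1, -0.052 without control replicate 1 and at most 0.18 over these refits, and that of ILMN_2628672 ranged from -0.22 without knockout replicate 3 to 0.34. Dim probes are limited by their distance from background, as the change of fold with the correction shows for ILMN_2701363.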
